A study of Mus musculus with 6 samples.

Results

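Mast cell marker genes were followed in the gonadal white adipose tissue (gWAT) of lean and obese mice as a list of 8 genes, *Cpa3*, *Mcpt4*, *Cma1*, *Tpsb2*, *Kit*, *Ms4a2*, *Fcer1a* and *Hdc*, each found in the read-count table by the NCBI gene identifier of its symbol. They are 8 of the 19790 genes in the table. RNA of this depot had been sequenced from wild-type C57BL/6 mice kept for 8 weeks either on normal chow (NCD, n = 3) or on a diet high in fat (HFD, n = 3). The labels place the start of the diets at 6 weeks of age and the methods of the study at 8 weeks, and the methods use male mice. Neither group carried a transgene, a deletion or a drug by its labels, and diet is the only difference that they give. The fat was sequenced as whole tissue, and the labels call the 3 samples of a diet biological replicates. In bulk tissue, fewer mast cells and less RNA per mast cell cannot be told apart.

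Mast cells are long-lived tissue leukocytes that sit along vessels and nerves, also in fat. They store proteases, histamine and proteoglycans in granules and release them when antigen crosslinks IgE bound to FcεRI, the high-affinity IgE receptor. Their growth and survival depend on KIT, the receptor for stem cell factor. The 8 genes cover these functions: *Cpa3* (carboxypeptidase A3), *Mcpt4* and *Cma1* (the chymases mMCP-4 and mMCP-5) and *Tpsb2* (the tryptase mMCP-6) encode granule proteases, *Fcer1a* and *Ms4a2* encode the α and β chains of FcεRI, *Kit* encodes the growth factor receptor, and *Hdc* encodes histidine decarboxylase, which makes histamine. *Kit* and *Hdc* are less restricted than the proteases, since *Kit* is also used by melanocytes and progenitor cells and *Hdc* by basophils and neutrophils.

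The promoters of 7 of the 8 genes were found in the RefSeq table (GRCm38.p6), and the 250 bases before each start were searched on both strands for AGATAA or TGATAA, the letters bound by GATA factors. GATA2 is a transcription factor that mast cells need for their identity. *Cpa3*, *Mcpt4*, *Ms4a2* and *Fcer1a* held such a match, 4 of 7, against 16.6% of 32851 promoters of the same length, and the windows of *Cma1*, *Kit* and *Hdc* held none. Promoters of a protease and a receptor chain with a match are set here beside a protease and *Hdc* without one. Each window lies on the minus strand and is printed 5′ to 3′ along the gene, ending at the base before the transcript start that RefSeq's promoter table gives. That start is the outer end of *Cma1*, lies 3 bases inside *Fcer1a* and 28 bases inside *Cpa3*, and lies 5347 bases inside *Hdc*, so the window shown for *Hdc* is that of an internal start and the outer one was not searched. Capitals mark the match, which reads TTATCT where it lies on the other strand.
Cpa3, chr3:20242182-20242431: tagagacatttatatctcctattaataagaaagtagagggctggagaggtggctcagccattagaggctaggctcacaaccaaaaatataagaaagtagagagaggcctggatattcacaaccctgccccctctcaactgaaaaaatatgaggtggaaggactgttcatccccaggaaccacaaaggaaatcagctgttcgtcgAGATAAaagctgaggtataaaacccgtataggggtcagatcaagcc
Fcer1a, chr1:173227230-173227479: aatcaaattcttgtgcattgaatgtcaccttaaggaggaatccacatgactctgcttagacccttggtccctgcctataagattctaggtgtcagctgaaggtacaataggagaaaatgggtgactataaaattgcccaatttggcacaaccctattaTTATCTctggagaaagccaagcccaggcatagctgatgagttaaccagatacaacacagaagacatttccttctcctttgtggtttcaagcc
Cma1, chr14:55944676-55944925: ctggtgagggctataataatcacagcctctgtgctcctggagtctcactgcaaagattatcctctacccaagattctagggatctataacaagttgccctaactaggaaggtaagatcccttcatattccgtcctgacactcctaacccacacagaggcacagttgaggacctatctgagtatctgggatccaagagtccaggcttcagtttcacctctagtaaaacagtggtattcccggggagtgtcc
Hdc, chr2:126618679-126618928: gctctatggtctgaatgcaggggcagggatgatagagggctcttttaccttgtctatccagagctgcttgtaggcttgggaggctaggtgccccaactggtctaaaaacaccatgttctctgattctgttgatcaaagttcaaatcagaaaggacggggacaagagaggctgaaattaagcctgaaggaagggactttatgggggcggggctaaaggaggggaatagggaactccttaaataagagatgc
The match in *Cpa3* starts 46 bases before this start and that in *Fcer1a* 92 bases before it, while *Mcpt4* has 1 at 103 bases. *Ms4a2* has 3, at 224, 37 and 11 bases before a start that lies 71 bases inside the gene. Its matches at 37 and 11 bases thus lie within the gene. CATGTG on either strand, a core recognised by MITF, was found in 1 of 7 against 12.3% of all promoters, and TATAAA on the gene's own strand in 3 of 7 against 7.59%. The *Kit* window was 70.8% G and C with 17 CG pairs, and the other 6 windows lay between 38.8% and 51.2% against a median of 52.4% over all promoters. These matches describe letters only, and binding was not measured.

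The 6 libraries held between 49575113 and 66360046 counts. Transcripts of a seminal vesicle secretion list, a gland that lies beside the gonadal fat pad in males, took 58.6%, 11.2% and 2.30% of the counts of NCD mice 1, 2 and 3, and at most 8 counts in any HFD mouse. Levels are therefore given in CPM, the count of a gene relative to the size of its library, after scaling by TMM, edgeR's trimmed mean of M values, and the contrast of each of the 8 genes is also given without NCD mouse 1. Summed over a list of 8 adipocyte genes, the level was 3428 CPM in NCD mouse 1 and between 10863 and 18837 CPM in the other 5 mice. Fold changes are HFD over NCD on the log2 scale from edgeR's quasi-likelihood fit, with p-values adjusted over all genes by Benjamini-Hochberg and called at 0.05.

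All 8 genes had counts in all 6 mice and passed the filter on low counts. None of the 8 was called in either direction by edgeR, where 7.47% of 15241 genes were (5.58% higher and 1.9% lower on HFD), and 4 of 8 had an unadjusted p under 0.05 (*Mcpt4*, *Cma1*, *Fcer1a* and *Hdc*). Without NCD mouse 1 again 0 of 8 were called, where 20.9% of 15510 genes were (10.7% higher and 10.1% lower). DESeq2 called 1 of 8, *Hdc*, where it called 25.7% of 15204 genes (14.2% higher and 11.5% lower), and limma called 0 of 8, where it called 7.45% of 15241 genes. The mean was lower on HFD for 6 of the 8, with *Kit* and *Hdc* higher. The median log2 fold change of the 8 was -0.90, beside -0.08 over all genes tested, and it was -0.74 beside 0.02 without NCD mouse 1. *Fcer1a* alone had diets that did not overlap, 1 of 8, where 39.2% of all genes tested did not overlap with 18.7% having HFD below NCD and 20.5% above. Without NCD mouse 1 it was again 1 of 8, where 57.1% of genes did not overlap, 29.1% with HFD below and 27.9% above.

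**Figure D1:**
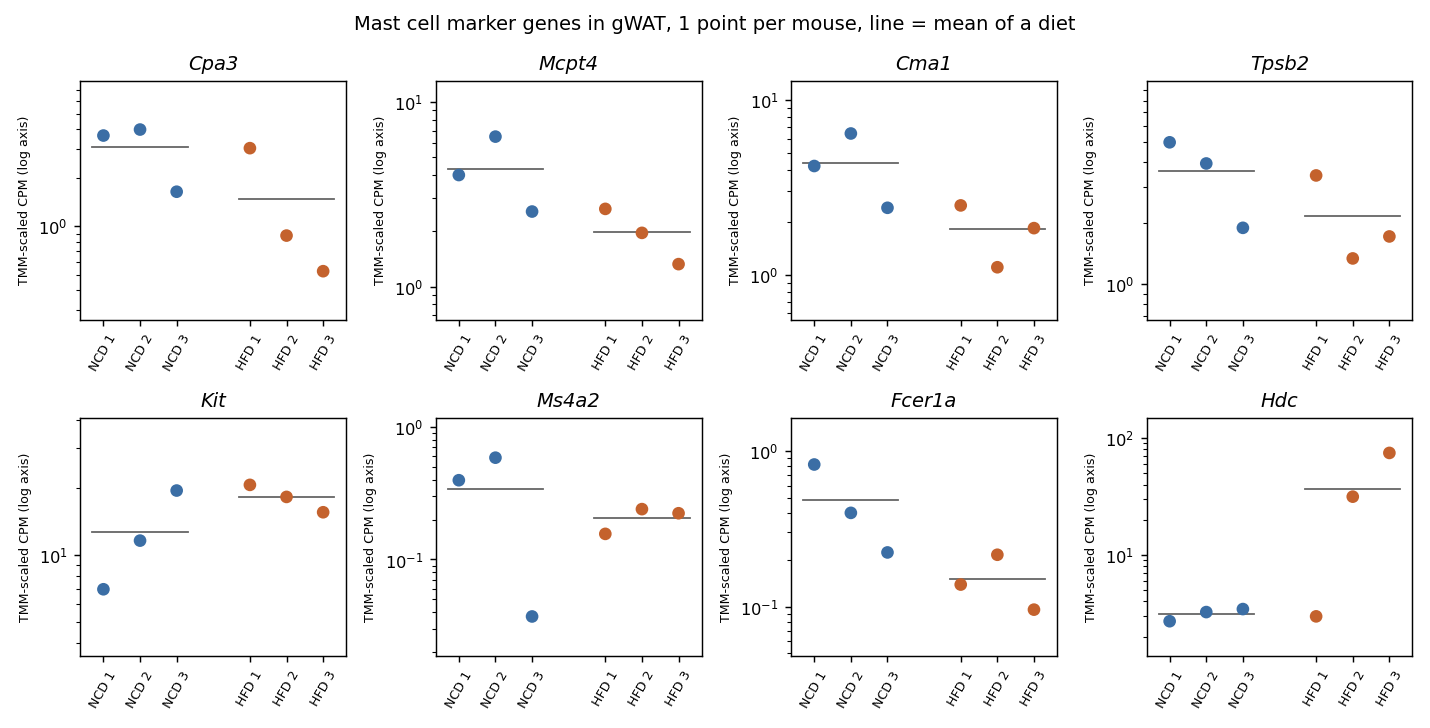
TMM-scaled CPM of the 8 mast cell genes in each mouse, with a panel and its own log axis for each gene, points for mice and lines for the mean of the 3 mice of a diet. The 2 high HFD mice in the *Hdc* panel, at 31.5 and 74.6 CPM, stand apart from the other HFD mouse at 2.98 CPM, which lies within the NCD values.

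The granule proteases were sparse transcripts, with between 33 and 388 counts in a library, and each had a lower mean on HFD than on NCD with overlapping diets. *Cpa3*, which trims C-terminal residues from peptides, was at 3.65, 3.98 and 1.64 CPM in the NCD mice and 3.05, 0.875 and 0.526 CPM in the HFD mice. HFD mouse 1 stood within the NCD values, and the other HFD mice stood below all of them. Its log2 fold change was -1.06 ± 0.74 (SE, n = 3 per diet, edgeR adjusted p = 0.373), and -0.91 without NCD mouse 1 (edgeR adjusted p = 0.457).

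*Mcpt4*, the chymase closest in function to human chymase, was at 4.02, 6.49 and 2.55 CPM on NCD and 2.63, 1.95 and 1.32 CPM on HFD. The diets touched only through NCD mouse 3 and HFD mouse 1. The log2 fold change was -1.14 ± 0.45 (SE, edgeR adjusted p = 0.157), with a 95% interval from -2.24 to -0.04, and -1.18 without NCD mouse 1 (edgeR adjusted p = 0.139). *Cma1*, whose product is stored together with carboxypeptidase A3, was at 4.20, 6.45 and 2.42 CPM on NCD and 2.50, 1.10 and 1.85 CPM on HFD. The same pair of mice overlapped. Its log2 fold change was -1.26 ± 0.49 (SE, edgeR adjusted p = 0.148), and -1.28 without NCD mouse 1 (edgeR adjusted p = 0.142). *Mcpt4* and *Cma1* lie 115068 bases apart on chromosome 14, and *Mcpt4* shares 5.48% of its 50-base words with the chymase *Cma2*, so a part of the reads of *Mcpt4* could be placed on either gene.

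*Tpsb2*, which encodes a secreted tryptase, was at 4.99, 3.93 and 1.90 CPM on NCD and 3.43, 1.34 and 1.72 CPM on HFD. NCD mouse 3 and HFD mouse 1 again lay among the mice of the other diet. *Tpsb2* on NCD had the same order of mice as the seminal vesicle share, and the part of that gland's RNA in it was not tested. The log2 fold change was -0.74 ± 0.52 (SE, edgeR adjusted p = 0.380), and -0.42 without NCD mouse 1 (edgeR adjusted p = 0.605).

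The summed level of the 4 proteases was 16.9, 20.8 and 8.50 CPM on NCD and 11.6, 5.27 and 5.42 CPM on HFD, means of 15.4 ± 6.30 and 7.43 ± 3.62 CPM (SD, n = 3 each). NCD mouse 3 stood below HFD mouse 1. The log2 ratio of the means was -1.05 with TMM, -0.99 when scaled to total counts outside the seminal vesicle list, and -0.53 when scaled to all counts, where NCD mouse 1 stood at 8.36 CPM. Scaling to all counts moves the median log2 fold change of all genes from -0.08 to 0.44, and each protease kept a negative fold change under it. *Cpa3* took 20.001% ± 1.44 of the protease counts on NCD and 17.5% ± 8.32 on HFD (SD, n = 3 each), and *Mcpt4* took 28.3% ± 3.92 and 28.0% ± 7.84. *Cma1* took 28.1% ± 3.04 and 25.5% ± 7.46, and *Tpsb2* took 23.6% ± 5.49 and 28.9% ± 3.20, with the diets of *Tpsb2* apart (HFD above) without NCD mouse 1. These shares within the protease pool were tested with an exact two-sided permutation test, whose smallest possible p is 0.1 for 3 mice against 3, and the p ran from 0.3 to 1 across them.

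**Figure D2:**
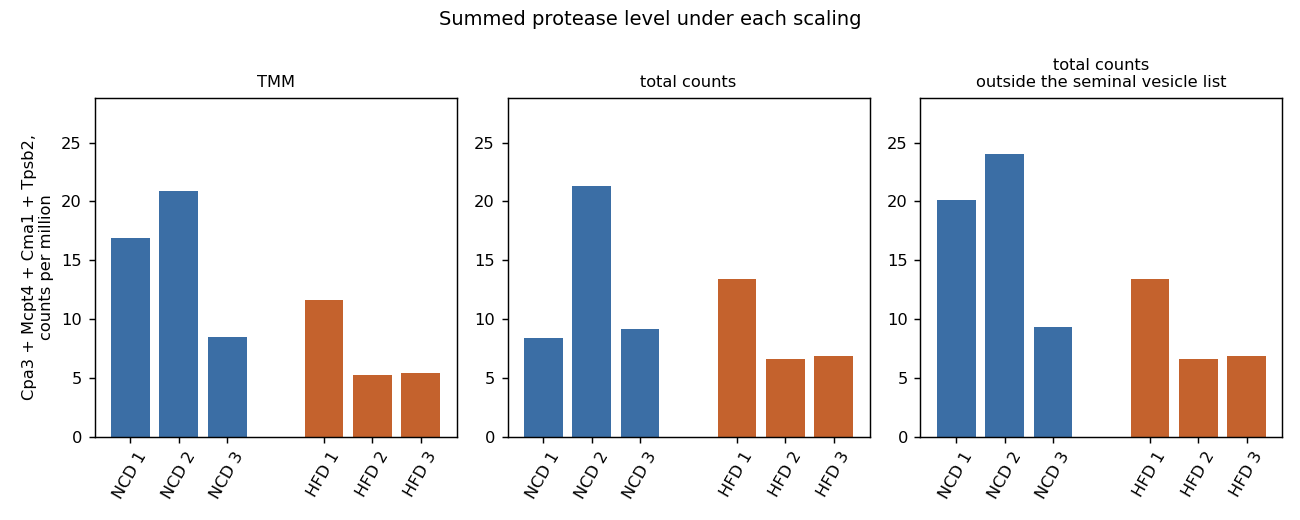
Summed level of *Cpa3*, *Mcpt4*, *Cma1* and *Tpsb2* in each mouse under 3 scalings of the counts, in CPM, with a bar for each mouse. NCD mouse 1 is at 16.9 CPM with TMM and 8.36 CPM with all counts, while HFD mice 2 and 3 lie below every NCD mouse under each scaling.

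Across the 6 mice the proteases varied together. The log2 level of each correlated with the mean of the other 3 at Pearson's r of 0.916 for *Cpa3*, 0.908 for *Mcpt4*, 0.886 for *Cma1* and 0.897 for *Tpsb2*, as a description over 6 libraries that share depth and scaling. The same measure was 0.726 for *Fcer1a*, 0.462 for *Ms4a2*, -0.604 for *Kit* and -0.857 for *Hdc*. By this measure the 10 genes of the table most like the mean protease profile were led by *Olfml2a* (r = 0.989), *Nomo1* (0.976), *Yif1b* (0.969) and *Kcnh2* (0.964). Genes of the seminal vesicle list had r between 0.738 (*Svs2*) and 0.783 (*Svs5*) with this profile. The part of that gland's RNA in the protease levels was not tested.

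Other granule protease genes added little. *Mcpt1*, the chymase of mucosal mast cells, had 0 counts in all 6 libraries, which allows up to 3 counts in each, and *Cma2* had 7 counts in NCD mouse 3 and 0 in the other mice. *Tpsab1*, listed in RefSeq as a transcribed pseudogene 20745 bases from *Tpsb2* on chromosome 17, had 4, 17 and 0 counts on NCD and 11, 7 and 8 on HFD. *Gzmb*, which cytotoxic lymphocytes also express, was the 1 gene of the 6 in this list that passed the filter, and neither edgeR (adjusted p = 0.409) nor DESeq2 called it.

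The IgE receptor chains were the least abundant of the 8 genes. *Fcer1a*, the chain that holds IgE, had 27, 24 and 12 counts on NCD and 8, 18 and 6 on HFD, or 0.822, 0.401 and 0.223 CPM against 0.139, 0.216 and 0.0956 CPM. The NCD levels had the same order of mice as the seminal vesicle share, and the part of that gland's RNA in *Fcer1a* was not tested. Every HFD mouse stood below every NCD mouse, although NCD mouse 3 and HFD mouse 2 differed by less than their counting error, with 95% exact Poisson intervals of 0.115 to 0.390 and 0.128 to 0.341 CPM that cover counting error only. Its log2 fold change was -1.64 ± 0.65 (SE, edgeR adjusted p = 0.157; the exact permutation p was 0.1, the smallest possible), and -1.02 without NCD mouse 1 (edgeR adjusted p = 0.290). *Ms4a2*, the chain that amplifies the signal, had 13, 35 and 2 counts on NCD and 9, 20 and 14 on HFD, or 0.396, 0.585 and 0.0372 CPM against 0.156, 0.240 and 0.223 CPM. The HFD mice lay inside the NCD range, whose lower end was the 2 counts of NCD mouse 3. The log2 fold change was -0.71 ± 0.88 (SE, edgeR adjusted p = 0.616), and -0.57 without NCD mouse 1 (edgeR adjusted p = 0.713).

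Of 12 genes of the receptor's γ chain and its signalling cascade, 8 rose on HFD and 0 fell by edgeR, 9 rose by edgeR without NCD mouse 1 and 9 by DESeq2, with a median log2 fold change of 1.85 over the 12 tested. *Fcer1g*, the γ chain that FcεRI shares with Fcγ receptors, was at 18.2, 42.7 and 37.6 CPM on NCD and 153, 163 and 252 CPM on HFD, a log2 fold change of 2.53 (edgeR adjusted p = 0.0249). *Syk*, the kinase recruited by the γ chain, rose by 2.74 (edgeR adjusted p = 0.0235) and *Lyn*, the kinase that starts the cascade, by 1.76 (edgeR adjusted p = 0.0219). *Lat2*, *Btk*, *Plcg2*, *Inpp5d* and *Grb2* made up the rest of the 8. *Fyn* (log2 fold change 1.26) was not called by edgeR in 6 mice (adjusted p = 0.0624) but was without NCD mouse 1 and by DESeq2. *Lat*, *Plcg1* and *Gab2* were called by none of these, and the log2 fold change of *Plcg1*, a phospholipase of the cascade, was -0.30, and -0.55 without NCD mouse 1. Macrophages express most of this list, and the sum of 8 macrophage genes was 242, 568 and 474 CPM on NCD and 3380, 1889 and 2462 CPM on HFD, with 4 of the 8 called higher by edgeR and 8 of 8 without NCD mouse 1. The part of these cells in the change was not tested. Leaving out NCD mouse 1 left 3234 genes of the whole table called, against 1139 in 6 mice. Leaving out any other library left between 2 and 7, so few calls remain when NCD mouse 1 is kept and another mouse is not.

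*Kit* was the most abundant of the 8 by counts in 4 libraries. It was at 7.0004, 11.6 and 19.4 CPM on NCD and 20.6, 18.2 and 15.5 CPM on HFD. NCD mouse 1 was the lowest of the 6 and NCD mouse 3 lay among the HFD mice. The log2 fold change was 0.51 ± 0.38 (SE, edgeR adjusted p = 0.398), and 0.24 without NCD mouse 1, with a 95% interval from -0.40 to 0.87 (edgeR adjusted p = 0.547). Per count of the 4 proteases, *Kit* had 0.415, 0.555 and 2.28 counts on NCD and 1.77, 3.45 and 2.86 on HFD. NCD mice 1 and 2 were thus low and NCD mouse 3 was within the HFD values (exact two-sided permutation p = 0.2). Summed over 5 endothelial genes the level was 235, 666 and 722 CPM on NCD and 909, 744 and 739 CPM on HFD, which shares the low value of NCD mouse 1, and the part of this in *Kit* was not tested. *Kitl*, which encodes the KIT ligand stem cell factor, was at 51.5, 67.7 and 73.5 CPM on NCD and 106, 78.8 and 79.2 CPM on HFD, with HFD above NCD in all mice but not called (log2 fold change 0.46, edgeR adjusted p = 0.201).

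*Hdc* had the widest spread. It was at 2.71, 3.24 and 3.44 CPM in the NCD mice and 2.98, 31.5 and 74.6 CPM in the HFD mice, from 172 counts in HFD mouse 1 to 4679 in HFD mouse 3. The NCD mice lay close together, HFD mouse 1 lay among them, and HFD mice 2 and 3 stood far above. The log2 fold change was 3.53 ± 1.04 (SE, 95% interval 1.00 to 6.07), with an edgeR adjusted p of 0.0884 in all 6 mice and 0.109 without NCD mouse 1, and DESeq2 gave an adjusted p of 0.00102. Without HFD mice 2 and 3, a setting chosen after the data were seen, it was -0.05. *Hdc* took between 8.41% and 10.9% of the counts of the 8 genes in the NCD mice and HFD mouse 1, and 56.9% and 77.8% in HFD mice 2 and 3. Per protease count it was at 0.161, 0.156 and 0.405 on NCD and 0.257, 5.98 and 13.8 on HFD. In HFD mice 2 and 3, then, the proteases were at their lowest summed levels and *Hdc* at its highest.

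**Figure D3:**
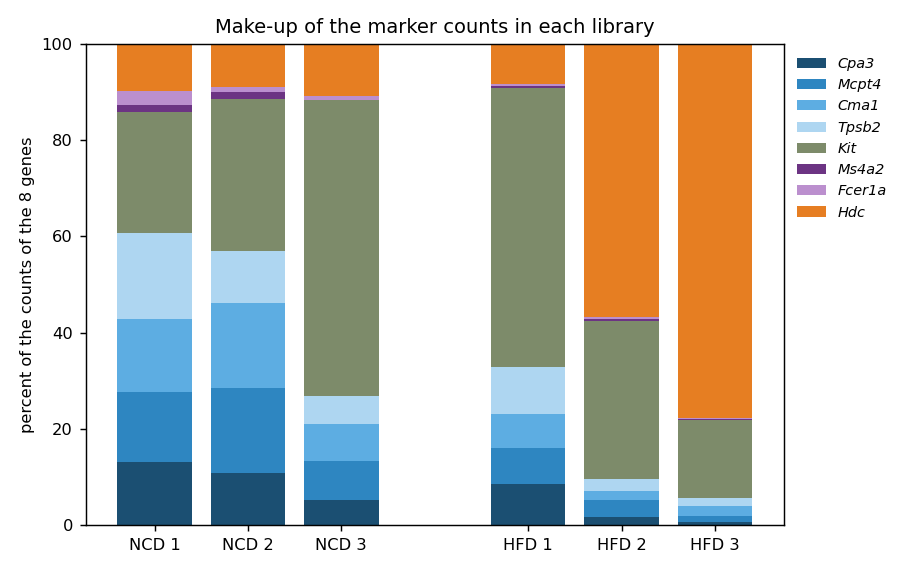
Share of the counts of the 8 mast cell genes taken by each gene in each mouse, in percent, stacked to 100 for each library. *Hdc* takes 9.75%, 8.85% and 10.9% in the NCD mice, 8.41% in HFD mouse 1, and 56.9% and 77.8% in HFD mice 2 and 3.

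Neutrophil genes had the same order of HFD mice as *Hdc*. *S100a8*, a calcium-binding protein of neutrophils and monocytes, was at 0.183, 1.17 and 0.558 CPM on NCD and 3.88, 24.9 and 76.6 CPM on HFD. *Cxcr2*, the neutrophil chemokine receptor, was at 0, 0.201 and 0.0744 CPM on NCD and 0.104, 10.5 and 26.6 CPM on HFD. HFD mouse 3 stood above HFD mouse 2 by 2.37-fold for *Hdc*, 3.07-fold for *S100a8*, 3.24-fold for *S100a9* and 2.53-fold for *Cxcr2*, while HFD mouse 2 stood above HFD mouse 1 by 10.6-fold for *Hdc*, 6.42-fold for *S100a8*, 122-fold for *S100a9* and 101-fold for *Cxcr2*. Over the list of 6 neutrophil genes the sum was 0.183, 1.81 and 1.04 CPM on NCD and 4.96, 92.6 and 282 CPM on HFD, and *Ly6g* was at 0 in the NCD mice and HFD mouse 1. Of the 4 that passed the filter, edgeR and limma called 0 in 6 mice, DESeq2 called 4 higher, and 4 had an unadjusted edgeR p under 0.05. Without NCD mouse 1 edgeR called 1 of 5, *S100a8* (adjusted p = 0.0492). The macrophage sum had its highest value in HFD mouse 1, where *Hdc* was at 2.98 CPM. Within that list *Adgre1*, *Cd68*, *Csf1r*, *Itgax* and *Lgals3* were highest in HFD mouse 1. By contrast *Itgam* was at 253, 336 and 449 CPM in HFD mice 1, 2 and 3. *Cd14* (39.9, 74.6 and 124 CPM) and *Mrc1* (299, 303 and 487 CPM) likewise rose in the order of *Hdc*. The 3 basophil genes summed to between 5 and 33 counts in a library, and none of them passed the filter. *Mcpt8*, a basophil protease, was at 0 counts on NCD and 2, 2 and 6 counts on HFD. *Prss34* went the other way, with 2, 14 and 7 counts on NCD and 0, 5 and 2 on HFD. *Cd200r3* had 3, 9 and 4 counts on NCD and 31, 11 and 8 on HFD, with overlapping levels. The part of neutrophils or macrophages in the *Hdc* level was not tested.

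**Figure D4:**
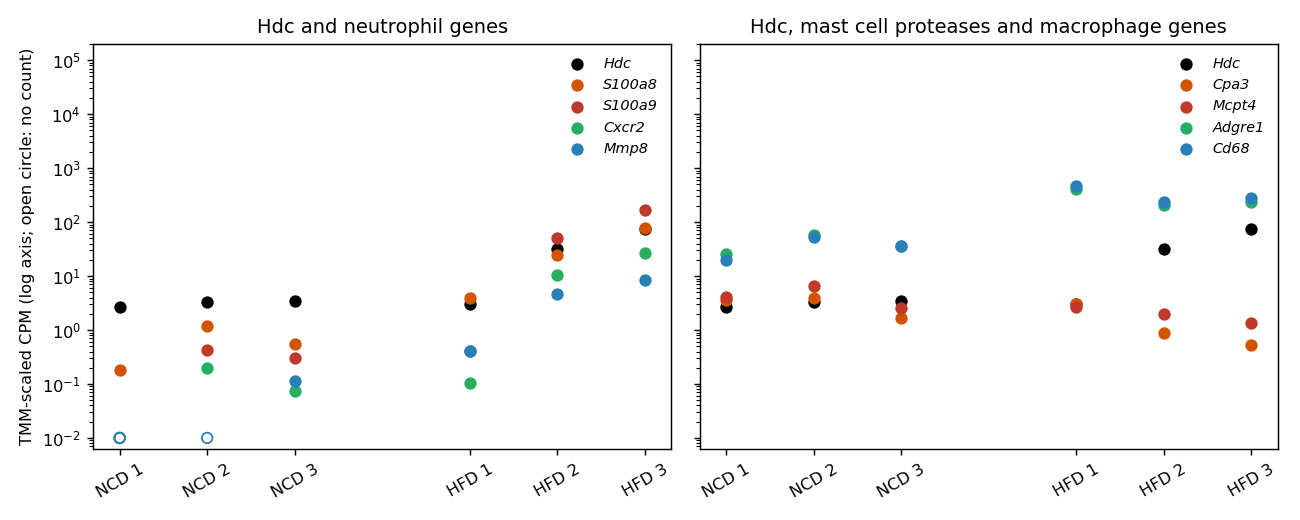
TMM-scaled CPM on a log axis of *Hdc* with 4 neutrophil genes (left) and of *Hdc* with the proteases *Cpa3* and *Mcpt4* and the macrophage genes *Adgre1* and *Cd68* (right), with a point for each gene in each of the 6 mice and open circles for a gene with 0 counts, where points of equal value lie over each other. *Hdc* and *S100a8* reach 74.6 and 76.6 CPM in HFD mouse 3, where *Cpa3* is at 0.526 CPM. The macrophage genes *Itgam*, *Cd14* and *Mrc1*, which rise from HFD mouse 1 to HFD mouse 3, are not shown.

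Of 7 genes that act around histamine, 5 were tested, and edgeR and limma called 0 of them, with 2 at an unadjusted edgeR p under 0.05. DESeq2 called those 2, *Aoc1* (adjusted p = 0.00728) and *Slc18a2* (0.0450), lower on HFD. *Slc18a2*, the vesicular transporter that loads histamine and other amines, was at 0.396, 0.301 and 0.484 CPM on NCD and 0.156, 0.108 and 0.143 CPM on HFD, with every HFD mouse below every NCD mouse (log2 fold change -1.53, edgeR adjusted p = 0.0873). *Hnmt*, which methylates histamine, was at 22.3, 29.1 and 44.6 CPM on NCD and 21.5, 21.7 and 14.2 CPM on HFD. *Aoc1*, the diamine oxidase that degrades histamine, was at 1.49, 0.502 and 0.260 CPM on NCD and 0.121, 0.0719 and 0.112 CPM on HFD. Both also stood below NCD in all HFD mice, with edgeR adjusted p of 0.171 and 0.0755. Of all genes tested, 18.7% had every HFD mouse below every NCD mouse. The histamine receptor genes *Hrh1* and *Hrh2* had log2 fold changes above 0 with overlapping diets. These were 0.87 (edgeR adjusted p = 0.374) and 0.68 (edgeR adjusted p = 0.420). *Aoc1* on NCD had the same order of mice as the seminal vesicle share, and the part of that gland's RNA in it was not tested.

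In FPKM, the TMM-scaled CPM divided by exon length in kilobases, the order of mean levels on NCD was *Cma1* (3.998), *Mcpt4* (3.93), *Kit* (2.41), *Tpsb2* (2.26), *Cpa3* (2.13), *Hdc* (1.31), *Fcer1a* (0.483) and *Ms4a2* (0.121). From *Cma1* down to *Cpa3*, no gene was above its next neighbour in all 3 mice, although *Cma1* and *Mcpt4* were each above *Tpsb2*, *Cpa3* and *Hdc* in 3 of 3. *Hdc* was above *Fcer1a* and *Fcer1a* above *Ms4a2* in 3 of 3. On HFD the order was *Hdc* (15.2), *Kit* (3.44), *Mcpt4* (1.78), *Cma1* (1.67), *Tpsb2* (1.36), *Cpa3* (1.02), *Fcer1a* (0.1503) and *Ms4a2* (0.0733). The first place of *Hdc* held in 2 of 3 HFD mice. *Kit* was above *Mcpt4* in 3 of 3 HFD mice, at a mean log2 ratio of 1.00 ± 0.29 (SD).

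**Figure D5:**
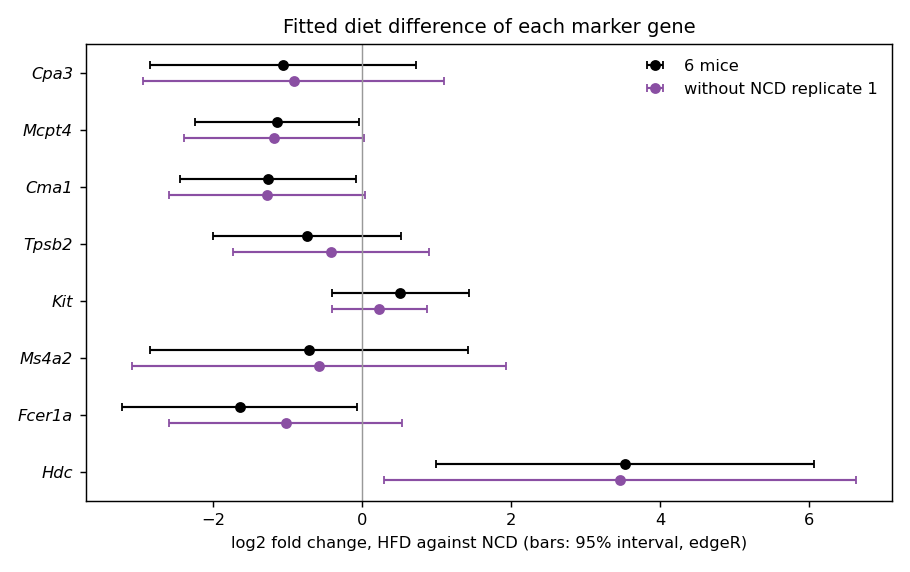
Log2 fold change (HFD over NCD) of the 8 genes from the edgeR quasi-likelihood fit in all 6 mice and without NCD mouse 1, with points for the estimates and bars for 95% intervals. The points of the proteases and receptor chains lie below 0 and those of *Kit* and *Hdc* above it, and no adjusted p is under 0.05.

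Of 11 factors and receptors of the mast cell lineage, 9 were tested, and edgeR called 2, both higher on HFD, where DESeq2 called 3 higher and 1 lower. *Mitf*, a transcription factor of mast cells, melanocytes and macrophages, was at 15.3, 14.3 and 18.2 CPM on NCD and 39.6, 29.96 and 31.6 CPM on HFD, a log2 fold change of 1.08 (edgeR adjusted p = 0.0280). *Il3ra*, the interleukin-3 receptor α chain, rose by 1.72 (edgeR adjusted p = 0.0219). *Gata2* was at 702, 75.2 and 22.8 CPM on NCD and 10.02, 9.63 and 9.54 CPM on HFD, in the order of the seminal vesicle share among NCD mice, and was not called by edgeR in 6 mice (adjusted p = 0.0769). It was called lower by edgeR without NCD mouse 1 (log2 fold change -2.32, adjusted p = 0.0240) and by DESeq2 in 6 mice (adjusted p = 6.3e-05). *Mrgprb1*, a receptor of the connective tissue mast cell, was at 0.852, 1.37 and 0.707 CPM on NCD and 0.641, 0.204 and 0.271 CPM on HFD. All HFD mice lay below the NCD mice, at a log2 fold change of -1.40 that was not called (edgeR adjusted p = 0.169). Its r with the mean protease profile was 0.946 over the 6 mice, rank 12 among all genes. *Mrgprb2* had overlapping diets, with a log2 fold change of -0.64 (edgeR adjusted p = 0.594) and an r of 0.671. *Adora3* went the other way, with every HFD mouse above every NCD mouse and a log2 fold change of 1.71. It was not called by edgeR in 6 mice (adjusted p = 0.0833) but was by DESeq2 (adjusted p = 0.0139). *Tal1* and *Il1rl1* had fold changes above 0 and *Enpp3* below 0, none of them called by either.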

How the data were processed

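Reads per gene in the gWAT of 6 mice were deposited by the authors as raw, unscaled counts in a single table whose rows carry NCBI gene identifiers. The submitters' processing notes name bcl2fastq 2.20.0, Trimmomatic, HISAT2 2.1.0, StringTie 1.3.4d, DESeq2 and the builds mm10 and GRCm38, without saying which step each was used for. Each column was matched to a sample by its label (HFD mouse 3 is numbered 4 there), and 0 columns were left without a sample. Identifiers were given symbols from the reference tables. 48 of 19790 had none and held 0.629% of the counts. The counts ranged from 49575113 to 66360046 per library, so 1 count is between 0.0151 and 0.0202 CPM of the library total, and low genes are limited by counting.

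The filterByExpr function kept genes (with 10 as minimum count and 15 as minimum total), and the counts were scaled with TMM and fitted on both diets with no covariate by glmQLFit and glmQLFTest (edgeR 4.0.16, R 4.3.3). p-values were adjusted by Benjamini-Hochberg over all genes tested and called at 0.05. Values are HFD over NCD, and p-values measure the spread among the 3 samples of a diet. Ratios within a library were compared by an exact two-sided permutation test. Alternatives were DESeq2 1.42.0 on the same filtered genes, limma 3.58.1 on log2(CPM + 0.5), other scalings, no filter, the replicate number as a block and each library left out. Fits with 1 library of a diet were added after seeing the data. The fitting script was tested on simulated data, and figures were drawn with matplotlib 3.10.9.

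Named genes were the 8 members, genes of the related lists and the 10 genes most correlated with the mean log2 level of the 4 proteases. *Mcpt2*, *Mcpt9*, *Il3*, *Il9*, *Epx* and *Tyr* were not analysed here. The members and the lists were chosen with earlier results of these data known. Gene positions and promoters were taken from RefSeq (GRCm38.p6) and exon lengths from GENCODE vM21.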

Additional observations from a re-analysis of the deposited data

How the results depend on the processing

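None of the 8 genes was called by edgeR or limma under any setting run, and DESeq2 called 1, *Hdc*. The median log2 fold change of the 8 was negative under all 15 alternatives, between -1.31 and -0.69 when 1 library was left out, and -0.12 with NCD mice 1 and 2 both left out. With those 2 mice out the sign turned for *Tpsb2* (0.19), *Kit* (-0.10) and *Ms4a2* (2.42), the last against a mouse with 2 counts. With HFD mice 2 and 3 out it turned for *Cpa3* (0.0051) and *Hdc* (-0.052). In both settings the lone library is assumed to vary like the other diet, and the cause was not tested. When 1 library was left out, *Hdc* ran from 2.47 (without HFD mouse 3) to 4.09 (without HFD mouse 1), *Cpa3* from -2.12 (without HFD mouse 1) to -0.64 (without HFD mouse 3), *Kit* from 0.24 to 0.97, *Tpsb2* from -1.22 (without HFD mouse 1) to -0.42 (without NCD mouse 1), and *Ms4a2* from -1.23 (without NCD mouse 3) to -0.0049 (without NCD mouse 2). *Mcpt4*, *Cma1* and *Fcer1a* stayed negative under each alternative. With the replicate block, 0 of the 8 were called, and 12 genes of the table against 1139 without it. Same-numbered mice did not deviate together (r = -0.06, -0.05 and 0.01), which with 3 mice per diet cannot show whether they were paired by number. Calls over all genes fell to 2 without NCD mouse 2, NCD mouse 3 or HFD mouse 1, and rose to 3234 without NCD mouse 1.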

Other observations

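Eosinophils and group 2 innate lymphoid cells, which share cytokines with mast cells, were read from lists of 4 and 7 genes. *Ccr3*, the eotaxin receptor of eosinophils, was at 0, 0.0334 and 0.186 CPM on NCD and 1.80, 1.15 and 1.82 CPM on HFD, and *Siglecf*, a lectin of eosinophils and some macrophages, at 0.122, 0.351 and 0.0372 CPM against 1.42, 1.13 and 1.24 CPM. Neither was called by edgeR in 6 mice (adjusted p = 0.0524 and 0.0727), *Ccr3* was called by edgeR without NCD mouse 1 (adjusted p = 0.0247), and both were called by DESeq2 and limma in 6 mice. *Prg2*, the eosinophil granule protein, stayed between 0 and 0.446 CPM with overlapping diets. *Rora*, a factor of innate lymphoid cells that many other cells use, fell by 0.90 on the log2 scale (edgeR adjusted p = 0.0327), from 41.0, 41.3 and 48.2 CPM to 25.6, 24.7 and 19.7 CPM, the 1 gene of the 6 tested in the lymphoid list that edgeR called in 6 mice. *Areg*, which encodes the growth factor amphiregulin, had 0 counts in each NCD mouse and 14, 21 and 48 counts in the HFD mice, and was called higher by edgeR without NCD mouse 1 (adjusted p = 0.0342) and by DESeq2 in 6 mice (adjusted p = 0.000469), but not by edgeR in 6 mice (adjusted p = 0.0525). *Gata3* and *Il17rb* had negative fold changes that edgeR did not call in 6 mice, and *Il1rl1* and *Klrg1* had fold changes above 0 with overlapping diets. DESeq2 called *Gata3* (adjusted p = 5.8e-06) and *Il17rb* (adjusted p = 0.0051) lower in 6 mice. *Gata3* was also called lower by edgeR without NCD mouse 1 (adjusted p = 0.0265). It was at 254, 24.0 and 5.65 CPM on NCD, in the order of the seminal vesicle share.

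Among growth factors and attractants of mast cells, edgeR called 1 of the 6 tested in 6 mice and 2 without NCD mouse 1, and DESeq2 called 4. *Ccl2*, a chemokine that draws monocytes and mast cell progenitors, was at 3.80, 11.7 and 9.56 CPM on NCD and 46.7, 95.3 and 158 CPM on HFD, a log2 fold change of 3.58 (edgeR adjusted p = 0.0293). *Il33*, the alarmin sensed by mast cells through the receptor encoded by *Il1rl1*, was at 13.8, 11.1 and 9.54 CPM on NCD and 10.5, 30.9 and 23.2 CPM on HFD and was not called (edgeR adjusted p = 0.193). Of 7 mediator genes 6 were tested, and edgeR called 2 higher on HFD in 6 mice and 4 without NCD mouse 1. *Hpgds*, the haematopoietic prostaglandin D synthase, rose by 2.94 on the log2 scale (edgeR adjusted p = 0.0300). *Alox5ap*, the activator of 5-lipoxygenase, rose by 2.37 (edgeR adjusted p = 0.0434). *Hpgds*, like the macrophage sum, was highest in HFD mouse 1, and the part of macrophages in it was not tested. *Ndst2*, *Alox5* and *Ltc4s* had fold changes above 0 with overlapping diets and were not called in 6 mice. *Tph1*, not tested, had 102, 28 and 3 counts on NCD and 3, 0 and 5 on HFD. *Srgn*, the core protein of the granule proteoglycan, was at 21.6, 48.0 and 54.7 CPM on NCD and 93.3, 157 and 278 CPM on HFD, and was not called by edgeR in 6 mice (adjusted p = 0.0629) but was without NCD mouse 1 (adjusted p = 0.0489) and by DESeq2 in 6 mice (adjusted p = 0.000912).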
